A study of Homo sapiens with 12 samples.

Results

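The comparison asked which genes differed between TET1 knockdown and control clones of Colo320DM, a human colorectal carcinoma cell line, when both were treated with 5-aza-2'-deoxycytidine (5-aza-dC). It used 6 of the 12 arrays of the series, chosen by their titles. These were 3 control clones, stably transfected with a vector for a negative control microRNA, and 3 clones stably transfected with a vector for an artificial microRNA against TET1. Every one of these clones received 1 µM 5-aza-dC for 72 h, so the drug does not differ between the groups. The other 6 arrays hold the same clones after mock treatment and serve only for reference here. Each array is 1 clone, the clones were grown out under selection after transfection, and the labels do not say which of the study's targeting vectors a given knockdown clone carried. By the study's account, its Colo320DM knockdown clones KD1 and KD2 carried the same targeting vector and KD3 another.

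TET1 is a dioxygenase that oxidises 5-methylcytosine in DNA to 5-hydroxymethylcytosine, the first step of active removal of DNA methylation. 5-aza-dC is a cytidine analogue that is built into replicating DNA, traps DNA methyltransferases and so lowers methylation passively as cells divide. Genes silenced by promoter methylation in cancer cells, among them cancer-testis genes, are known to be re-expressed after this drug.

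RNA was measured on one-colour Agilent arrays. All signals below are log2 values relative to the 75th percentile of the array, so 0 is the level of that percentile and 1 unit is a 2-fold step. That percentile lay between 360.6 and 541.8 intensity units on the 6 arrays, and 46.8% to 52.88% of probes were well above background. The lowest signal well above background on an array lay between -4.9 and -4.16, and values below it carry no order. A probe that the scanner software did not mark as well above background is called at background. The 3 treated controls and knockdown clone 2 were on 1 slide (slide 2), and knockdown clones 1 and 3 were on another (slide 1). Across 24949 probes the controls correlated with each other at 0.974 to 0.982, knockdown clones 1 and 3 at 0.984, and knockdown clone 2 with the controls at 0.962 to 0.966. Knockdown clone 2 correlated with the other knockdown clones at only 0.924 and 0.936, so the arrays grouped by slide more closely than by label. For this reason differences are also given within slide 2, as knockdown clone 2 minus the mean of the 3 controls, wherever that value turned sign or was smaller by more than 1.5 times, and for many of the other genes. That value rests on 1 knockdown clone and has no test.

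Of the epithelial markers, 6 of 7 were well above background on all 6 arrays, KRT18 being the brightest at 3.72 to 4.25. CDH1, the epithelial cadherin, stayed under the background limit throughout. Summed, the epithelial markers lay at 4.40 to 4.61 in the controls and somewhat lower, at 4.05 to 4.34, in the knockdown clones, without overlap. Fibroblast, leukocyte and erythroid markers had summed levels that overlapped between the groups. The 5 endothelial markers were dim, with 0 well above background on all 6 arrays, and summed to -3.85 to -3.27 in the controls and -3.07 to -2.15 in the knockdown clones. The part of these marker levels in the results was not tested.

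TET1 itself was read by 3 probes. The brightest, at chr10:70332072-70332131 on hg19, covers the beginning of the reading frame and is shown because it behaved differently from the other TET1 probes. Its start codon is in capitals.
TET1 probe: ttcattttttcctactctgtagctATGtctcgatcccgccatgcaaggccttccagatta
This probe read 3.48, 3.79 and 3.56 in control clones 1 to 3 and 2.39, 3.72 and 2.79 in knockdown clones 1 to 3. Knockdown clone 2 thus lay within the control range, and the difference of -0.64 ± 0.36 (SE) did not pass the test (limma, adjusted p = 0.348). Within slide 2 it was 0.12. The probe at chr10:70454164-70454223, at the other end of the gene, read 1.48, 1.73 and 1.40 in the controls and -0.64, 0.43 and -0.36 in the knockdown clones. The remaining probe, at chr10:70453516-70453575, read -1.36, -1.25 and -1.27 against -2.54, -2.33 and -2.13. On both of these the groups did not overlap, and the knockdown clones held 30.2% and 48.6% of the control signal. Within slide 2 they differed by -1.10 and -1.04. Their adjusted p-values were 0.126 and 0.135 (limma). The exact two-sided permutation test gave p = 0.1 for both, the smallest that 3 against 3 arrays allow, and p = 0.3 for the brightest probe.

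Of 24998 probes tested, 17 passed the threshold (limma, adjusted p under 0.05), which is 0.068%. Of these, 5 were higher and 12 lower in the treated knockdown clones, and they belonged to 12 named genes and 4 transcripts without a gene symbol. The groups did not overlap on any of the 17 probes. Within slide 2, 16 of them differed by at least 2-fold in the same direction, and the other had no value for knockdown clone 2. Both counts reuse the values on which the probes were called, so they are no separate check of the calls. The knockdown clones were not well above background on any array for 8 of the 17 probes, and the controls for 3. Only 2 probes, those of TUBB3 and HTATIP2, were measured on all 6 arrays.

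The number of calls depended on single clones. It was 12 without control clone 1, 0 without control clone 2, 3 without control clone 3, 7 without knockdown clone 1 and 0 without knockdown clone 3. Without knockdown clone 2 it rose to 7942, and the remaining groups then lay on different slides, so that slide and clone type cannot be told apart. At an unadjusted p under 0.05 there were 4815 probes, or 19.3%, in the comparison of all 6 arrays.

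**Figure D1:**
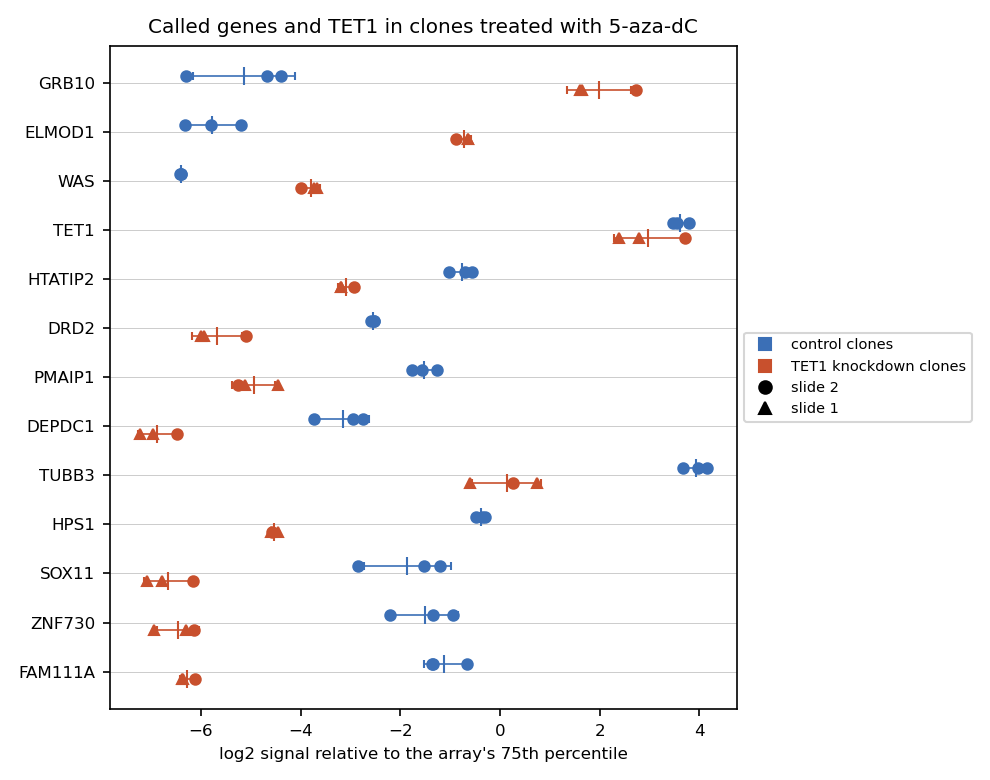
The x axis gives the log2 signal relative to the 75th percentile of the array for the 12 called genes and TET1, one row a gene. Each point is 1 array (blue, control clones; orange, TET1 knockdown clones; circles, slide 2; triangles, slide 1), and bars show the mean ± SD of 3 arrays. The groups were apart for each called gene, also for the knockdown clone on the controls' slide, while 1 knockdown array lay within the controls for TET1. The genes were called on these same arrays.

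Of the genes higher in the knockdown clones, the 3 called were an adapter and 2 regulators of small GTPases and actin. GRB10, an imprinted adapter that binds the insulin and IGF1 receptors, had the largest difference of all probes tested. Its probe at chr7:50657813-50657872 read -4.40, -6.30 and -4.68 in the controls and 1.60, 2.73 and 1.64 in the knockdown clones. The difference was 7.12 ± 0.57 (SE, adjusted p = 0.0235), and 7.86 within slide 2. The controls were well above background on 1 of 3 arrays, so the size is not a measured fold. A second GRB10 probe differed by 5.85 ± 0.54 (adjusted p = 0.0341). Both GRB10 probes thus separated the groups by far more than the spread of the clones, and in mock clones the first differed by 9.0 (adjusted p = 0.000544).

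ELMOD1, a GTPase-activating protein for ARF-family GTPases, was under the background limit on every control array. It read -5.20, -5.80 and -6.31 there and -0.65, -0.88 and -0.64 in the knockdown clones. The signal was at least 13.4-fold higher in the knockdown clones (adjusted p = 0.0112), and the probe differed by 5.69 in mock clones. WAS, an activator of actin nucleation in blood cells, was dim in every clone. It read -6.39, -6.39 and -6.42 against -3.72, -3.99 and -3.66, which is at least 1.59-fold higher. The adjusted p of 0.0172 (limma) belongs to the fitted difference of 2.61, which rests on control signals at background with an SD of 0.02. Its mock difference was 0.36, with an adjusted p of 0.753 (limma), and -0.21 among the mock arrays of slide 1. There the mock control clones read -3.53 and -3.56 and the mock knockdown clones -3.89, -3.58 and -3.81.

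Among the called genes lower in the knockdown clones, TUBB3 was the brightest. It encodes the beta-tubulin of neurons. The controls read 4.16, 3.98 and 3.67 and the knockdown clones 0.74, 0.27 and -0.61, a 14-fold lower signal (difference -3.81 ± 0.37, SE; adjusted p = 0.0398). All 6 values were well above background, and within slide 2 the difference was -3.67. HTATIP2, a metastasis suppressor also known as TIP30, read -0.70, -1.02 and -0.56 against -3.19, -2.92 and -3.18, which is 5.07-fold lower (-2.34 ± 0.21; adjusted p = 0.0339). Its second, brighter probe differed by -2.45 and just missed the threshold (adjusted p = 0.0524).

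FAM111A and PMAIP1 were at background in the knockdown clones. FAM111A, a serine protease that acts at replication forks, read -1.37, -1.35 and -0.66 in the controls and -6.35, -6.12 and -6.38 in the knockdown clones, at least 11-fold lower (adjusted p = 0.00458). PMAIP1, which encodes the proapoptotic BH3-only protein NOXA, read -1.76, -1.56 and -1.26 against -4.45, -5.25 and -5.12, at least 7.93-fold lower (adjusted p = 0.0258). Neither gene had a knockdown array well above background. FAM111B, the paralog of FAM111A, was measured on all arrays and differed by -2.89 ± 0.34 without passing the test (adjusted p = 0.0652).

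HPS1, a subunit of the BLOC-3 complex in the biogenesis of lysosome-related organelles, had the smallest adjusted p of the comparison. The probe at chr10:100177976-100179822, a stretch longer than the probe itself, read -0.30, -0.35 and -0.49 in the controls and -4.46, -4.57 and -4.59 in the knockdown clones (-4.16 ± 0.18; adjusted p = 0.0036). Knockdown signals were well above background on 2 of 3 arrays. The other HPS1 probes differed in the same direction, by -5.17 and -2.27, and did not pass (adjusted p = 0.135 and 0.052). On the brighter of them knockdown clone 2 read -2.16 and the other knockdown clones -6.48 and -5.02 (-2.78 within slide 2). On the remaining probe, well above background on all 6 arrays, the knockdown clones lay close together at -3.41, -3.32 and -3.68.

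The remaining calls were the transcription factor genes SOX11 and ZNF730, the receptor gene DRD2, DEPDC1 and 4 transcripts without a symbol. SOX11, a neural SOX factor, read -1.53, -1.20 and -2.85 in the controls and was at background in every knockdown clone, at least 6.61-fold lower (adjusted p = 0.044). ZNF730, a KRAB zinc finger gene at chr19:23332658-23332717, read -2.20, -1.34 and -0.94 in the controls and was at least 8.52-fold lower (adjusted p = 0.0228). A transcript listed as XLOC_l2_006665, whose probe lies at chr19:23330166-23330225 beside it, was at least 6.53-fold lower (adjusted p = 0.0172). These neighbouring probes thus moved in the same direction. DRD2, the D2 dopamine receptor, was at least 4.09-fold lower (adjusted p = 0.0339).

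DEPDC1, a gene of dividing cells, was at least 2.72-fold lower on its called probe (adjusted p = 0.0339). A second DEPDC1 probe, measured on all arrays, differed by -2.07 (adjusted p = 0.103). The other transcripts without a symbol were XLOC_003204, at least 3.13-fold higher (adjusted p = 0.0396), XLOC_006766, at least 6.8-fold lower (adjusted p = 0.0172), and XLOC_005976, lower by 5.88 on the log2 scale (adjusted p = 0.027). For XLOC_005976 control clone 1 and knockdown clone 2 had no value, so its fit rests on 4 arrays. The controls left were on slide 2 and the knockdown clones on slide 1, so slide and clone type cannot be told apart there. In mock control clones 1 and 2, on slide 1, the probe read -3.35 and -3.08. Mock control clone 3, on slide 2, read 1.26. The mock knockdown clones, all on slide 1, read -4.86, -3.52 and -4.18.

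The same clones after mock treatment give a reference for these calls, and since they are the same clones they are no independent samples. In mock clones 34 of 24753 probes passed the threshold, or 0.137%. Of the 17 probes called under 5-aza-dC, 16 were tested in mock clones and 9 of them were called there too, and 16 of the 17 differed in the same direction. SOX11 was the exception, not well above background on any of the 6 mock arrays. Among the mock arrays of slide 1 alone, WAS turned to -0.21 and XLOC_005976 differed by -0.98.

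Among probes well above background on all 6 arrays, the largest differences between groups that did not overlap included no call besides TUBB3. On the higher side, METRN, a secreted factor of neuronal and glial development, read 0.06, 0.17 and 0.38 in the controls and 2.01, 2.95 and 2.26 in the knockdown clones (2.21 ± 0.29; adjusted p = 0.0817; 2.74 within slide 2). HLA-DMB, an MHC class II chaperone, differed by 2.70, CTCFL, the testis paralog of CTCF, by 2.49, and SLC2A4, the insulin-regulated glucose transporter, by 2.19. Their adjusted p-values lay between 0.129 and 0.191. Within slide 2 they differed by 1.39, 1.48 and 1.51.

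For SNRPD2P2, RAC2, LOC100292905, MIR155HG, LOC100652741 and NOTCH3, differences of 2.17 to 2.51 over all arrays came down to 0.54 to 1.06 within slide 2. MIR155HG, the host transcript of miR-155, shows the pattern. Its controls read 0.08, 0.90 and 0.45, knockdown clone 2 read 1.04, and knockdown clones 1 and 3 read 4.02 and 3.20. After mock treatment MIR155HG read 2.57 and 1.18 in control clones 1 and 2 on slide 1 and -2.03 in control clone 3 on slide 2. Knockdown clone 2, then on slide 1, read 3.79. NOTCH3 lacked such a split, with mock controls at -0.74, -4.23 and -3.19. The part of the slide was not tested. RAC2 is a hematopoietic small GTPase, and another of its probes, brighter on average, differed by only 0.20, and by 0.07 within slide 2.

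On the lower side, TNFRSF1A, the main TNF receptor, read 1.74, -0.21 and 1.26 in the controls and -4.43, -2.38 and -4.82 in the knockdown clones (-4.81 ± 0.76; adjusted p = 0.0978; -3.31 within slide 2). VGF, a neuroendocrine secretory peptide, read 3.86, 1.86 and 2.11 against -1.93, -1.26 and -2.15 (-4.39 ± 0.56; adjusted p = 0.079; -3.88 within slide 2). PLA2G16, TCEAL8, FAM83H, the BMP antagonist GREM1, the growth factor PTN and the homeobox gene EMX2 differed by -3.05 to -3.68, and by -1.76 to -4.19 within slide 2. None of these passed the test. TRIM4 differed between the knockdown clones. Its controls read 1.46, 2.18 and 1.45 and knockdown clone 2 read 1.42, while knockdown clones 1 and 3 read -3.77 and -4.0, so that within slide 2 the difference was -0.28. After mock treatment, with these 3 knockdown clones all on slide 1, clone 2 read 0.58 and clones 1 and 3 read -6.70 and -7.02.

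To describe gene groups, a probe was counted as separated if every knockdown array lay above, or below, every control array and the means differed by at least 2-fold. Of all probes tested, 908 (3.63%) were separated and higher and 894 (3.58%) separated and lower. With the array median as the scale these counts were 653 and 1164. Requiring knockdown clone 2 to differ by at least 2-fold from the controls of its own slide left 413 higher and 418 lower. The median difference over all probes tested was 0.015. The shares of list members below are read against these values and carry no test.

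**Figure D2:**
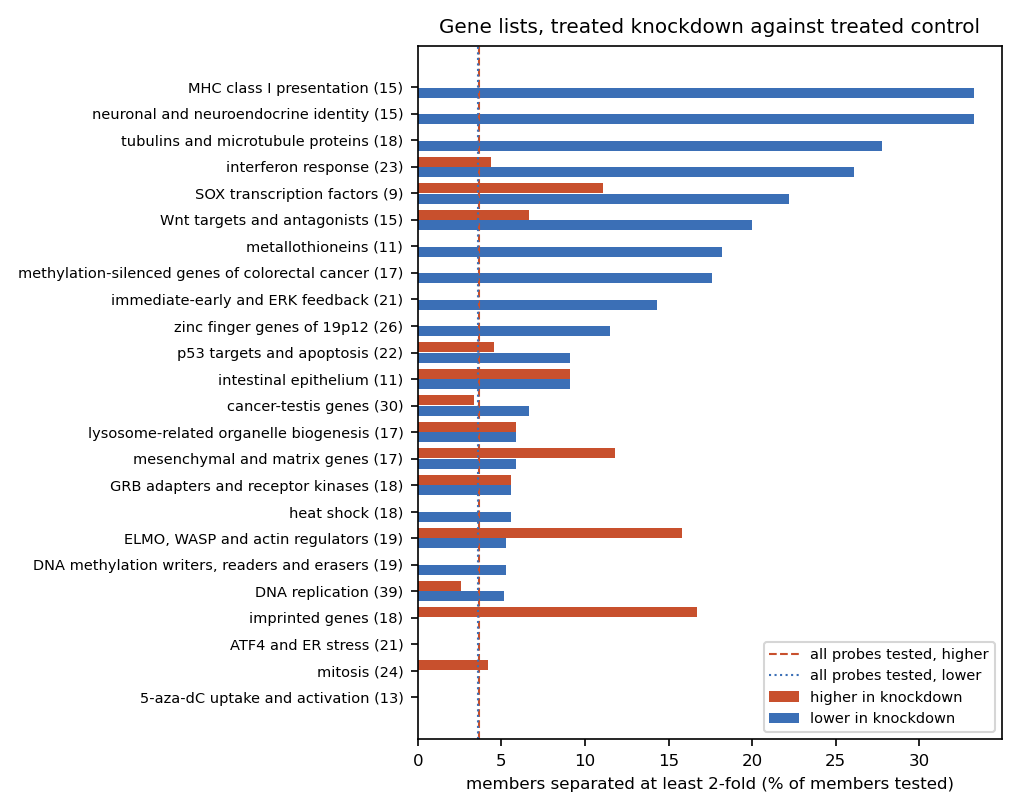
Bars give the percentage of tested members of each gene list that were separated at least 2-fold in treated knockdown against treated control clones (orange, higher; blue, lower), with the number tested in parentheses, and vertical lines give the shares over all probes tested, 3.63% and 3.58%. The share of lower members was 33.3% in the MHC class I list and in the neuronal and neuroendocrine list. The lists taken from the study are not shown.

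MHC class I genes, whose products load peptides and present them to T cells, had differences on one side throughout the list. All 15 tested members had a negative difference, with a median of -0.69 and of -0.64 within slide 2, and 5 (33.3%) were separated and lower. None was called. HLA-C, a heavy chain, read 3.92, 4.70 and 5.06 in the controls and 1.67, 2.27 and 1.99 in the knockdown clones (-2.58 ± 0.34; adjusted p = 0.0817). HLA-B differed by -2.46 (adjusted p = 0.0817) and PSMB8, an immunoproteasome subunit, by -2.16. The peptide trimming enzyme ERAP2 and the peptide transporter subunit TAP1 differed by -1.16 and -1.04, and by -0.64 and -1.70 within slide 2. The light chain gene B2M differed by -0.82 and its groups were not separated by 2-fold. Class I heavy chain genes are alike in sequence, and their probes may share signal.

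Of the interferon response list, 23 of 30 members were bright enough to be tested. Here 6 (26.1%) were separated and lower, 1 was separated and higher, the median was -0.52 (-0.34 within slide 2), and none was called. OAS3, a sensor of double-stranded RNA, read -2.18, -1.76 and -1.31 against -4.46, -5.24 and -4.65 (-3.04 ± 0.32; adjusted p = 0.0504). The neighbours PARP14, PARP9 and DTX3L on chromosome 3 differed by -2.88, -2.93 and -2.69, and by -3.48, -1.50 and -1.15 within slide 2. MX1, an antiviral GTPase, was at least 2.29-fold lower (adjusted p = 0.147). Other members did not follow these. ISG15 and IFIT1 differed by 0.20 each over all arrays and by -0.34 and -0.18 within slide 2. IFI44 was separated and higher (1.65), but read -3.88 in knockdown clone 2 against -4.01, -4.01 and -4.34 in the controls, a difference of 0.25, while knockdown clones 1 and 3 read -0.76 and -2.77.

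Of 29 neuronal and neuroendocrine genes 15 were tested, and 12 had a negative and 3 a positive difference. The median was -0.95, and -0.47 within slide 2. SOX11 and TUBB3 were called, and 5 members (33.3%) were separated and lower. The positive differences were those of ISL1, a LIM homeobox factor (0.83, groups apart by less than 2-fold), SCG5 (0.18) and NEUROG3 (0.11). CHGA, the granule protein chromogranin A, read 1.68, -0.82 and -0.19 in the controls and was at background in every knockdown clone, at least 28-fold lower (adjusted p = 0.0629). CHGB, its relative, differed by -2.06 and the synaptic protein SNAP25 by -2.46. SNAP25 read 4.11 in knockdown clone 2, near the controls at 4.46 to 4.83, and 1.30 and 1.17 in the others, so that its difference within slide 2 was -0.55. Summed over the 7 neuroendocrine markers, the level was 1.68 to 2.67 in the controls and 0.88 to 1.26 in the knockdown clones. Of these markers only 1, ENO2, was well above background on all 6 arrays, and 2 were so on none. ENO2 read 1.15, 2.23 and 0.91 in the controls and 1.16, 0.99 and 0.77 in the knockdown clones, so it overlapped between the groups. In a bulk sample, fewer cells of a kind and less RNA per cell cannot be told apart.

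Tubulins and microtubule proteins overlapped with that group. Of 18 tested members, 5 (27.8%) were separated and lower, with a median of -0.84, or -0.35 within slide 2. Besides TUBB3, the stathmin STMN3 differed by -2.33, TUBB6 by -1.37, TUBA1C by -1.16 and MAP1B by -1.15. Within slide 2 TUBA1C differed by only -0.34. Its mock control clones read 7.39 and 7.42 on slide 1 and 8.69 on slide 2. The mock knockdown clones, all on slide 1, read 7.03, 7.37 and 6.81. TUBA4A went the other way at 1.74 (0.38 within slide 2), without separated groups. Some tubulin genes are close copies, and signals of TUBA1C and its relatives may be shared.

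**Figure D3:**
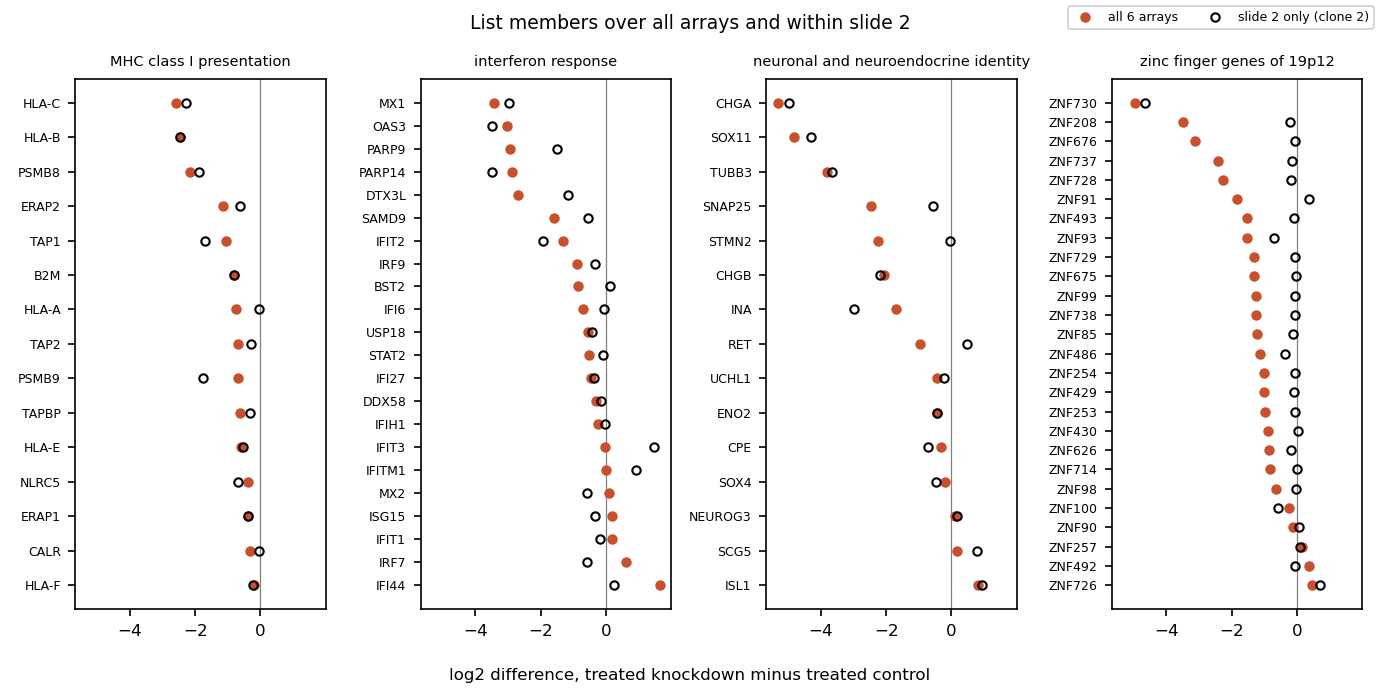
Each row is a tested member of a gene list (1 interferon response member is not shown), and the x axis gives the log2 difference of treated knockdown minus treated control clones over all 6 arrays (filled) and within slide 2, where knockdown clone 2 is set against the 3 controls (open). MHC class I members lay at or below 0 by both measures, whereas most zinc finger genes of 19p12 other than ZNF730 lay near 0 within slide 2.

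The zinc finger genes of 19p12, a cluster of KRAB repressors on chromosome 19, showed how far the slide values can depart. Of 26 tested members, 23 had a negative difference and the median was -1.17, yet the median within slide 2 was -0.07. ZNF208, for example, differed by -3.49 over all arrays and by -0.21 within slide 2. ZNF730 alone was called, and 3 members (11.5%) were separated and lower. Whether the other values belong to knockdown clones 1 and 3 or to their slide cannot be told apart from the treated arrays alone. On slide 1 after mock treatment, ZNF486 read -2.40 and -2.12 in control clones 1 and 2. The mock knockdown clones read -4.27, -3.58 and -4.64 there. ZNF93 read -2.15 and -2.04 in those controls, -1.11 in mock control clone 3 on slide 2, and -2.58, -2.69 and -3.48 in the mock knockdown clones. The part of the slide was not tested.

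Among Wnt pathway genes, 3 of 15 (20%) were separated and lower, namely the Wnt deacylase NOTUM (-2.55), DKK3 (-1.24) and the Wnt inhibitor APCDD1 (-1.14), each also lower by 1.5 to 1.75 within slide 2. EPHB2, a Wnt-induced ephrin receptor, was separated and higher (1.56), and the feedback gene AXIN2 differed by 0.57 (-0.22 within slide 2). Of 17 tested genes known to be silenced by methylation in colorectal cancer, 3 (17.6%) were separated and lower, VIM, DKK3 and SOX17, and none higher. DKK3 alone of these kept a 2-fold difference within slide 2. VIM differed by -1.35 over all arrays and by -0.65 within slide 2, and SOX17 by -1.09 and -0.46. In mock control clones VIM read 7.35 and 7.38 on slide 1 and 8.50 on slide 2. The mock knockdown clones, all on slide 1, read 6.72, 7.02 and 6.27 for VIM. The list median was -0.51, and -0.10 within slide 2.

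Immediate-early genes had a median of -0.67, and of -0.41 within slide 2. In this list 3 of 21 (14.3%) were separated and lower, these being FOS (-1.34), FOSL1 (-1.07) and EGR1 (-1.01). Metallothioneins are close copies of one another, and their median was 0.01 over all arrays but -1.54 within slide 2. Knockdown clone 2 was thus lower than the controls for most of this family, and knockdown clones 1 and 3 were not. MT2A and MT1F were separated and lower, by -1.40 and -2.46. Of 22 tested p53 targets and apoptosis genes, PMAIP1 was called and the death receptor FAS was higher by 1.64. HIPK2 differed by -4.69 with no value for knockdown clone 2, so slide and clone type cannot be told apart for it. On slide 1 after mock treatment, HIPK2 read -2.40 and -2.85 in control clones 1 and 2. The mock knockdown clones read -1.78, -2.40 and -1.59 there, a difference of 0.70.

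Imprinted genes included 3 of 18 (16.7%) separated and higher, GRB10, the noncoding RNA H19 (2.62) and IGF2 (1.18), and none lower. H19 was well above background on 1 control array, and its adjusted p was 0.166. Among ELMO, WASP and actin regulators ELMOD1, WAS and the small GTPase RAC3 (1.33) were separated and higher, and the WASP partner WIPF1 (-1.54) was lower.

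Several groups stayed near the values of all probes. Of 30 tested cancer-testis genes, 1 (3.33%) was separated and higher, SYCP3 (1.01, or 0.61 within slide 2), and 2 (6.67%) lower, MAGEC2 and SSX1. The list median was 0.13, and -0.08 within slide 2. In the DNA replication list the median was -0.10, and outside FAM111A and FAM111B only PRIM1 (1.11), a primase subunit, was separated. Mitosis genes had a median of 0.20, or 0.03 within slide 2, with BUB1 (1.08) as the single separated member of 24. The heat shock list held 1 separated member, and the list for ATF4 and ER stress held none. Genes for uptake and activation of 5-aza-dC held none among 13 tested. DCK, the kinase that activates the drug, differed by 0.48 (-0.03 within slide 2) and its nucleoside transporter SLC29A1 by 0.14. Of 19 genes that write, read or erase DNA methylation, DNMT1 was the single separated member. It read 3.93, 3.96 and 4.15 in the controls, 3.90 in knockdown clone 2 and 2.40 and 2.36 in the others, so its difference of -1.12 was -0.11 within slide 2. In mock control clones 1 and 2, on slide 1, DNMT1 read 2.66 and 2.53. Mock control clone 3, on slide 2, read 4.48. The mock knockdown clones, all on slide 1, read 2.75, 2.77 and 2.59. The part of the slide was not tested. TET2 differed by -0.51 and UHRF1 by -0.06.

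Among the smaller lists, SOX factors held SOX11 (called), SOX17 (-1.09) and SOX6 (1.18) as separated members of 9 tested. The lysosome-related organelle list held HPS1 and RAB38 (1.02) of 17. Receptor kinases and GRB adapters held GRB10 and the stem cell factor receptor KIT (-1.38) of 18. Intestinal epithelial genes held ASCL2 (1.01) and CDH17 (-1.56) of 11, the latter at -0.22 within slide 2, and mesenchymal genes SNAI1 (1.22), HAS3 (1.09) and VIM of 17. Within slide 2 SNAI1 differed by 0.63 and HAS3 by 0.32. The study named 10 genes with altered expression in these same mock clones that also had altered DNA methylation on its methylation arrays. Of these, 9 were tested under 5-aza-dC and 8 were separated, 5 higher and 3 lower. Of its longer list 62 of 75 were tested, with 14 (22.6%) separated and higher and 26 (41.9%) separated and lower. Those lists were chosen on the same clones and are not independent evidence of direction.

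Whether the difference between clone types changed with 5-aza-dC was tested as an interaction over all 12 arrays. Of 27200 probes, 7 passed the threshold (0.0257%), and 690 had an unadjusted p under 0.05. Among the named genes 5 passed, HTATIP2, PARP14, EGR1, FOS and SOX11. With each clone's mock and treated arrays blocked as a pair, none of these 5 passed on the probe by which each gene was read (limma, adjusted p = 0.0755, 0.248, 0.178, 0.079 and 0.329). In that fit 2 probes were called in all, and 1 of them was the second, brighter HTATIP2 probe. Its interaction in the fit without blocks was 5.48 ± 0.48 (SE; limma, adjusted p = 0.00424).

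HTATIP2 was at background in every mock knockdown clone, where it was at least 10.2-fold lower than in the controls at -1.39, -1.33 and -0.81. Under the drug it was measured in all 3 knockdown clones and was 5.07-fold lower. The interaction was 3.06 ± 0.32 (SE; adjusted p = 0.0111), a value that rests in part on signals at the floor. PARP14, a mono-ADP-ribosyltransferase of the interferon response, was at least 25.1-fold lower in mock and 7.38-fold lower in treated knockdown clones (interaction 3.93 ± 0.50; adjusted p = 0.042). For both genes the knockdown clones read higher after 5-aza-dC than after mock treatment, a step that was not tested on its own.

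For the immediate-early genes the control clones read lower after the drug. EGR1 read 3.97, 4.54 and 3.23 in mock control clones and -0.79, -1.70 and -1.44 in treated ones, whereas the knockdown clones read -2.47, -2.16 and -2.41 mock and -1.81, -2.69 and -2.47 treated. The interaction was 5.24 ± 0.51 (adjusted p = 0.00885). FOS read 3.59, 4.42 and 2.71 in mock control clones against -1.48, -1.23 and -1.68 treated, and -2.43, -1.89 and -2.90 in mock knockdown clones against -2.79, -2.70 and -2.91 treated (4.64 ± 0.55; adjusted p = 0.032). SOX11 was below background in all mock clones and measured after the drug in the control clones alone (-4.87 ± 0.59; adjusted p = 0.0332).

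**Figure D4:**
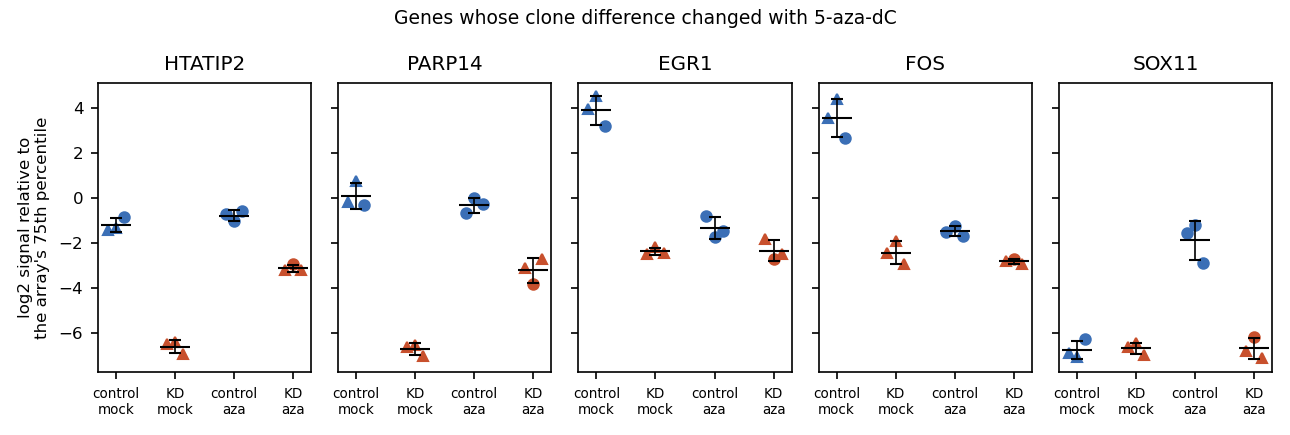
The y axis gives the log2 signal relative to the 75th percentile of the array for 5 genes in the 4 groups (blue, control clones; orange, TET1 knockdown clones, KD; circles, slide 2; triangles, slide 1; aza, 5-aza-dC), with bars for mean ± SD of 3 clones. HTATIP2 and PARP14 differed between the treatments mainly in the knockdown clones, EGR1 and FOS mainly in the control clones, and SOX11 was high in treated control clones.

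Promoter sequences of the interaction genes are printed because the drug acts on DNA methylation, which falls on cytosines in CG pairs. They come from RefSeq on GRCh38.p14, hold 250 bases before and 50 after the annotated start and run 5′ to 3′ on the gene's strand, with each CG in capitals. The table held 11 of the 15 called or interaction genes, and 4 of the 5 interaction genes.
HTATIP2 promoter, chr11:20363464-20363763: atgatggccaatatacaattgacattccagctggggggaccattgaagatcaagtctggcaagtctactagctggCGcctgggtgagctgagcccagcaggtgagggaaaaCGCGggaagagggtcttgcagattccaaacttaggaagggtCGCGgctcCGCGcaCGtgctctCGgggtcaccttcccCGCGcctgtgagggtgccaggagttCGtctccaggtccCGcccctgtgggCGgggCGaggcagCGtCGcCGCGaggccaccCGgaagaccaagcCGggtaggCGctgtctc
PARP14 promoter, chr3:122680589-122680888: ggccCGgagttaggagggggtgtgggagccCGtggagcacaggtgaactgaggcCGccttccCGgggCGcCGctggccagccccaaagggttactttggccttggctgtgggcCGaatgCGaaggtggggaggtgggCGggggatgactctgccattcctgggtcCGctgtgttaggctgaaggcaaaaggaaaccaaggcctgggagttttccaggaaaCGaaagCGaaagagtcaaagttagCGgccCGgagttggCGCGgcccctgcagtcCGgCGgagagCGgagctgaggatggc
EGR1 promoter, chr5:138465229-138465528: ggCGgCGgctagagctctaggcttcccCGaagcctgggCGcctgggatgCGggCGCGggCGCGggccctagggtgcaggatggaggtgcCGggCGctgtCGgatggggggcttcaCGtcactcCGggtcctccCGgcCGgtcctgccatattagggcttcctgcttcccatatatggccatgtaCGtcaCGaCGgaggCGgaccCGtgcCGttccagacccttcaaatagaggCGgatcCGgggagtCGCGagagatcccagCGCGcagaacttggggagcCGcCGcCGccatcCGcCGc
FOS promoter, chr14:75278578-75278877: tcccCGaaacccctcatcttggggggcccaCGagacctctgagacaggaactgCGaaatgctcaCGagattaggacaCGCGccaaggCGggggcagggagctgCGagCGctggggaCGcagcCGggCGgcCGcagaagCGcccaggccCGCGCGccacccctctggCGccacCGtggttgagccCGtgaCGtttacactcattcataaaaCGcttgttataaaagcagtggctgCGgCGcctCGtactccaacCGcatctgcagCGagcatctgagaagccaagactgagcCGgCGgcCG
The HTATIP2 window held 22 CG pairs, PARP14 held 19, EGR1 33 and FOS 30. Of all 35116 promoter windows of this length, 37.7%, 42.9%, 17.2% and 22.4% held as many or more, and the median was 14. CG is the same on both strands, so each pair was counted once. Each of the 11 genes with a window had at least 1 at or above that median. GRB10 also had windows with 3 and 4 pairs, WAS a window with 4 and TUBB3 a window with 9. The same share over all genes was not computed, so no trait of these genes is read from the count. Methylation of these sites was not measured in the expression arrays. By the study's account, its methylation arrays showed the HTATIP2 promoter CpG island moderately methylated in control clones and almost fully methylated in knockdown clones.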

How the data were processed

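The deposited scanner files list an intensity for every spot, extracted by the authors with Agilent Feature Extraction 10.7.3.1 after TRIzol extraction and one-colour labelling; per the file headers signals were background-corrected and not normalized between arrays. The deposited series table held the same intensity, rounded, within 0.497%. Later normalization by the authors was not given in the sources used here. Arrays carried 62976 spots, 4259 of them controls, and 50599 distinct probes (34368 with a symbol), with positions on hg19.

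Controls and outlier-marked spots were dropped, log2 signals of a probe's spots were averaged, and the 75th percentile of the array's non-control spots was subtracted. A probe was tested if 50% or more of its spots were well above background on 3 or more of the 6 arrays. Groups were compared by limma (version 3.58.1, two-sided moderated test of lmFit and eBayes; R 4.3.3, package data.table version 1.17.8), with Benjamini-Hochberg adjustment over all probes tested and a threshold of 0.05. The test was tried on simulated data with known changes. For probes at background on every array of one group a bound ("at least") is given instead of a fold. It sets the mean of the other group against the average, over the arrays at background, of the larger of 2 signals, the probe's own and the lowest that counted as well above background. Fitted differences of such probes, and of probes measured on only some arrays of a group, are no measured folds. The number of arrays limits precision. The p-values set a difference against the spread within the groups, which in the knockdown group also holds the slide. For 8 of the 17 called probes the knockdown clones were at background on every array, and for 3 the controls. These probes passed the filter through the other group alone, and the spread of the group at background is that of signals near the floor.

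Named genes were TET1, every called gene, the 10 higher and 10 lower genes with the largest difference among probes with values well above background on all 6 arrays and groups that did not overlap, and up to 4 separated members per list. A list member was read by its brightest probe, a called gene by its called probe. Further list members are given as examples, and some members counted in the lists are not reported here. The comparison, gene lists and tests were chosen with earlier results of these data known. The alternatives tried were other normalizations, filters and fits, slide and replicate blocks, the methods' t-test and leaving out each clone.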

Additional observations from a re-analysis of the deposited data

Results flagged for a closer look

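In 5 named genes the difference between knockdown and control clones was not the same after 5-aza-dC as after mock treatment, by the interaction over all 12 arrays. The value is the treated difference minus the mock difference on the log2 scale. It was 5.24 for EGR1, 4.64 for FOS, 3.93 for PARP14, 3.06 for HTATIP2 and -4.87 for SOX11. With slide as a block all 5 passed the threshold (limma, adjusted p = 0.00581, 0.0303, 0.0199, 0.00581 and 0.0282 in the same order). Blocking on the clone, which pairs its mock and treated arrays, none passed on the probe read for each gene, though the second HTATIP2 probe did. With clone and slide as blocks together FOS alone of the 5 passed on that probe (limma, adjusted p = 0.046). Leaving out both arrays of control clone 3 kept 4 of the 5 past the threshold, the exception being PARP14 (limma, adjusted p = 0.178). Leaving out any other clone, control or knockdown, kept none of the 5 on those probes. The second HTATIP2 probe stayed called when any 1 of the knockdown clones was left out. Without control clone 1, and likewise without control clone 2, the only call had a negative interaction, so this probe was not called there. The cause of these differences was not tested.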

How the results depend on the processing

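The 17 calls became 9 with normexp background correction and quantile normalization (701 probes separated at least 2-fold, against 1802), 39 with the array median as the scale, 11 without a filter on dim probes (3141 separated) and 0 with a filter on all 6 arrays (1160 separated; 4363 probes had an unadjusted p under 0.05). They became 60 with slide as a block, 169 over all 12 arrays, 39 over all 12 arrays with slide as a block, and 1 by the methods' t-test (3850 at an unadjusted p under 0.05). Quantile normalization gave 25 and the deposited series values 22, each with all 17 probes among them. Leaving out 1 clone gave 0 to 7942 calls and 1648 to 5404 separated probes, the highest values without knockdown clone 2, where slide and group cannot be told apart.

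Clones of 1 number in the control and knockdown groups are different clones, and their deviations correlated at 0.123, 0.007 and -0.049, so the numbers do not pair them. With the replicate number as a block 0 probes were called (4291 at an unadjusted p under 0.05), and 4 with slide added to that block. For the interaction, where the clone pairs mock and treated arrays, the 7 calls became 2 with that block, 12 with slide as a block, and 1 to 8 without 1 clone.

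TET1 on its brightest probe turned to 0.12 with slide as a block (adjusted p = 0.864), and lay between -1.02 and -0.35 without 1 clone, passing only without knockdown clone 2 (adjusted p = 0.0181). DNMT1 turned to 0.01 over all 12 arrays with slide as a block. No other named gene changed sign in any alternative that gave it a value. HPS1 and FAM111A were called in 20 of 25 alternatives, DRD2 and DEPDC1 in 11.

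Further settings were chosen after seeing the data. Robust estimation, spots averaged before the log and a percentile without outlier spots each gave the same 17 calls, and probes with values on all 6 arrays 16. An intensity trend in the variance gave 33 calls, 13 of them among the 17, with robust estimation added 32, and the trend on probes with values on all 6 arrays 12, so the count of calls hangs on small choices near the threshold, and 115 probes had adjusted p-values between 0.05 and 0.1. Requiring knockdown clone 2 to differ by 2-fold from the controls of its slide left 831 separated probes.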
